A study of Rattus norvegicus and Mus musculus with 17 samples.

Results

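The genes described here are the chemokines, the interleukins, the ligands of the tumour necrosis factor (TNF) superfamily and the receptors of all 3, in mouse and rat liver. A gene was taken as a member when its symbol began with Ccl, Cxcl, Ccr or Cxcr and a digit, with Il and a digit, or with Tnfsf or Tnfrsf. This gave 98 of 14072 listed genes, of which 39 of 4649 were mouse genes and 59 of 9423 were rat genes. The study set a chemically induced mouse liver tumour and a transplanted rat liver tumour beside rat liver that was regrowing after surgery, by RNA sequencing of whole tissue. All animals were male.

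In the first model, C57BL/6 mice received diethylnitrosamine (DEN), a carcinogen that is activated in hepatocytes, at 50 mg/kg and 14 days of age. The tumour promoter TCPOBOP, which activates the nuclear receptor CAR, followed 30 days later at 2 mg/kg. Livers with tumours were taken at 8 months (3 libraries) and livers before tumours at 5 months (3 libraries), so both groups had the carcinogen and the promoter, and tumours and age cannot be told apart. In the second model, MH3924a cells, a single transplantable Morris hepatoma line, were placed in the liver of ACI rats of 10 weeks, and the tumours were taken 2 weeks later (4 libraries). Regenerating liver came from rats of 10 to 12 weeks, labelled as ACI, 24 hours after a partial hepatectomy (4 libraries). Both rat groups shared the same untreated ACI livers as control (3 libraries). Tumour tissue in both models holds host cells as well as tumour cells, and in whole tissue fewer cells of a type and less RNA per cell cannot be told apart.

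Chemokines are small secreted proteins that guide leukocytes along a gradient by way of G protein-coupled receptors named Ccr or Cxcr. Interleukins signal through paired receptor chains, in most families to JAK kinases and STAT factors, and in the interleukin 1 family to the adaptor MyD88 and NF-kappaB. TNF superfamily ligands bind receptors as trimers, and the receptors recruit TRAF adaptors that lead to NF-kappaB or, where they carry a death domain, to caspases. In liver these signals pass between hepatocytes, Kupffer cells (the resident macrophages), sinusoidal endothelium, stellate cells and incoming leukocytes.

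The deposited tables give values read as RPKM (reads per kilobase of transcript, scaled to the mapped reads of the library), in which 0.001 stands for no reads, and they list only genes whose deposited p-value was at most 0.05. Genes outside the lists have no value here, so high counts of differences among the members were built into the tables. Groups without overlap were likewise the rule. They made up 1328 higher and 3320 lower of 4649 listed mouse genes and 7893 higher and 1033 lower of 9082 in the hepatoma table. In the regeneration table they were 1829 higher and 113 lower of 2093. Between hepatoma and regenerating liver they were 1462 higher and 102 lower of 1752. Differences were tested on log2(RPKM + 1) with limma over all listed genes that reached 1 RPKM in at least the number of libraries in the smaller group. Fold changes are on that scale, which understates the change of low genes, and a call is a Benjamini-Hochberg adjusted p under 0.05 over all annotated protein-coding genes. Library depths, relative to the first reference library, were estimated between 0.94 and 1.22 in mouse and between 1 and 1.18 in rat. The search covered only a narrow range around 1, so larger differences in depth could not have been found. Control rat library 3 stood apart. Among 6772 genes of the hepatoma table with at least 1 RPKM in a control, it lay over 2-fold above both other controls in 302 and more than 2-fold below both in 568 (12.8%), against 0.487% and 0.783% for control libraries 1 and 2. Nothing in the labels states that the libraries of a group came from different animals, and the p-values then reflect only how far these libraries vary.

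In DEN livers with tumours, TNF receptors and a small set of secreted mediators were higher than before tumours, led by the chemokine Cxcl17, the interleukin 1 receptor antagonist Il1rn, the TWEAK receptor Tnfrsf12a, the neutrophil chemokine Cxcl1 and the APRIL ligand Tnfsf13. The stromal chemokine Cxcl12, the interleukin 1 receptor chains Il1rap and Il1r1, Il18 and Il15ra were lower. Of the 39 members in this table, 26 were listed as higher and 13 as lower, and 24 passed the filter on low values. Of those 24, 13 rose, where 17.9% of all tested genes rose, and 9 fell, where 49.5% of all tested genes fell (67.3% passed in either direction). The members' median log2 fold change was 0.66, against -0.56 over all 3684 tested genes. When every library was scaled to the same median, 14 members rose and 4 fell, and the medians were 1.05 for the members and -0.16 for all genes. The balance over all 3684 tested genes turned with that scaling, with 912 higher and 614 lower, against 658 higher and 1823 lower as deposited. Without before-tumour library 1, 5 members fell in place of 9.

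**Figure D1:**
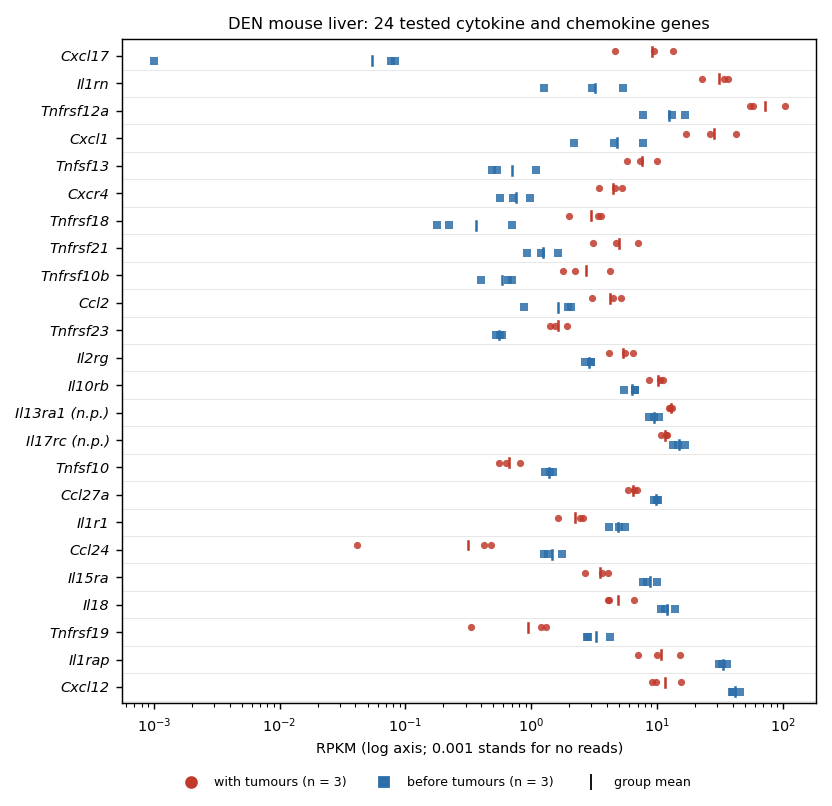
RPKM of the 24 tested mouse members on a log axis, with each DEN liver with tumours as a circle, each DEN liver before tumours as a square and the group mean as a vertical line; n.p. marks genes that did not pass the test. The libraries of the 2 groups do not overlap in any row, as in 4648 of all 4649 listed mouse genes (100%), with Cxcl17 at the top (4.59 to 13.4 RPKM with tumours) and Cxcl12 at the bottom (9.05 to 15.5 RPKM with tumours).

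Of the 6 tested chemokines, 3 rose and 3 fell, where 17.9% of all tested genes rose and 49.5% fell. Cxcl17, a chemokine of mucosal surfaces that attracts myeloid cells, had 4.59, 9.42 and 13.4 RPKM in livers with tumours, against no reads, 0.0769 and 0.0833 RPKM before tumours. It was close to undetected in every liver before tumours, and its log2 fold change was 3.16 ± 0.31 (SE; adjusted p = 0.0012). Cxcl1, which draws neutrophils through Cxcr2, had 26.4, 17.1 and 42.2 RPKM with tumours, against 7.68, 4.55 and 2.20 RPKM before. The groups did not overlap, with a log2 fold change of 2.37 ± 0.43 (adjusted p = 0.015), but the adjusted p was 0.057 without before-tumour library 2. Ccl2, the main monocyte attractant, had 3.04, 4.49 and 5.12 RPKM with tumours, against 1.96, 0.870 and 2.08 RPKM before. Its log2 fold change of 1.00 ± 0.23 (adjusted p = 0.028) no longer passed without before-tumour library 1 or 2 or tumour library 2 or 3, with an adjusted p of up to 0.087.

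Cxcl12, made by stromal and endothelial cells and the ligand of Cxcr4, was the most abundant member before tumours. It had 9.05, 15.5 and 9.88 RPKM with tumours, against 45.5, 40.0 and 39.7 RPKM before. Every liver with tumours lay below every liver before tumours, with a log2 fold change of -1.81 ± 0.19 (adjusted p = 0.00094), and the call held when any 1 library was left out. Its receptor Cxcr4 moved the other way, with 4.65, 5.24 and 3.45 RPKM with tumours, against 0.984, 0.562 and 0.713 RPKM before (log2 fold change 1.63 ± 0.16, adjusted p = 0.00068). Ccl24, an eosinophil attractant, had 0.0413, 0.424 and 0.477 RPKM with tumours and 1.25, 1.36 and 1.74 RPKM before (log2 fold change -0.91 ± 0.16, adjusted p = 0.0075). Ccl27a, a ligand of the skin-homing receptor Ccr10, averaged 6.47 ± 0.56 RPKM with tumours and 9.89 ± 0.38 RPKM before (SD, n = 3 each; log2 fold change -0.55 ± 0.12, adjusted p = 0.024). It has near-identical gene copies in the mouse genome, between which reads may have been split. Under median scaling neither Ccl24 (adjusted p = 0.12) nor Ccl27a (adjusted p = 1) passed, and Ccl27a also failed without any of the 3 before-tumour libraries or without tumour library 1 or 3 (adjusted p up to 0.11).

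In the interleukin 1 family, the antagonist and the receptor chains moved in opposite directions. Il1rn, which occupies the interleukin 1 receptor without signalling, had 22.8, 33.8 and 36.9 RPKM with tumours, against 3.06, 5.34 and 1.25 RPKM before. The lowest liver with tumours was above the highest before tumours, with a log2 fold change of 3.03 ± 0.37 (adjusted p = 0.003). Il1rap, the accessory chain that the interleukin 1 and interleukin 33 receptors share, had 7.10, 15.1 and 9.96 RPKM with tumours, against 30.8, 33.0 and 36.0 RPKM before (log2 fold change -1.60 ± 0.23, adjusted p = 0.0038). Il1r1, the receptor chain that binds interleukin 1, had 1.65, 2.46 and 2.60 RPKM with tumours, against 5.58, 4.98 and 4.15 RPKM before. Its log2 fold change of -0.87 ± 0.16 (adjusted p = 0.01) did not pass under median scaling (adjusted p = 0.078) or without before-tumour library 1 (adjusted p = 0.053). Il18, a member of the same cytokine family, had 4.15, 6.54 and 4.06 RPKM with tumours, against 11.6, 13.8 and 10.8 RPKM before (log2 fold change -1.16 ± 0.18, adjusted p = 0.0051).

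Among the other interleukin receptor chains, Il15ra, which presents interleukin 15 to neighbouring lymphocytes, averaged 3.49 ± 0.723 RPKM with tumours and 8.71 ± 1.21 RPKM before (log2 fold change -1.12 ± 0.16, adjusted p = 0.0035). Il2rg, the common gamma chain of lymphocytes, averaged 5.40 ± 1.19 RPKM with tumours and 2.87 ± 0.179 RPKM before (log2 fold change 0.71 ± 0.16, adjusted p = 0.023). Il10rb, a chain of the interleukin 10, interleukin 22 and interferon lambda receptors, averaged 10.1 ± 1.26 RPKM with tumours and 6.29 ± 0.735 RPKM before (log2 fold change 0.61 ± 0.15, adjusted p = 0.03). The calls for Il2rg and Il10rb were small and rested on nearly every library. Il2rg did not pass without any of the 3 before-tumour libraries or without tumour library 1 or 3 (adjusted p up to 0.1), and Il10rb did not pass without any of the before-tumour libraries or without tumour library 2 or 3 (adjusted p up to 0.12). Il13ra1, a chain of the interleukin 4 and 13 receptor, averaged 12.8 ± 0.399 RPKM with tumours and 9.48 ± 0.837 RPKM before and did not pass (log2 fold change 0.40 ± 0.12, adjusted p = 0.084), though it did under median scaling (adjusted p = 0.007) and quantile normalization (adjusted p = 0.0061). Il17rc, a chain of the interleukin 17 receptor, averaged 11.5 ± 0.739 RPKM with tumours and 14.8 ± 1.61 RPKM before and did not pass (log2 fold change -0.33 ± 0.13, adjusted p = 0.21), with 0.06 under median scaling and 0.16 under quantile normalization.

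All 6 listed TNF receptors passed the filter, and 5 rose and 1 fell, where 17.9% of all tested genes rose and 49.5% fell. Tnfrsf12a, the receptor of TWEAK, which is known in liver for its role in progenitor cell growth, was the most abundant member in livers with tumours. It had 57.9, 54.7 and 104 RPKM with tumours, against 13.2, 16.7 and 7.69 RPKM before. All 3 livers with tumours were above the highest liver before tumours, with a log2 fold change of 2.43 ± 0.33 (adjusted p = 0.0034). Tnfrsf18, the T cell receptor GITR, had 3.57, 2.00 and 3.37 RPKM with tumours, against 0.178, 0.696 and 0.220 RPKM before (log2 fold change 1.54 ± 0.20, adjusted p = 0.0025). Tnfrsf21, death receptor 6, had 4.70, 3.10 and 7.01 RPKM with tumours, against 1.64, 1.19 and 0.917 RPKM before (log2 fold change 1.36 ± 0.24, adjusted p = 0.0095). Tnfrsf23, a decoy receptor without a death domain that sits in a cluster of similar genes in mouse, averaged 1.63 ± 0.256 RPKM with tumours and 0.554 ± 0.0312 RPKM before (log2 fold change 0.75 ± 0.12, adjusted p = 0.0044). Tnfrsf19, or TROY, was the only TNF receptor that was lower, with 0.333, 1.31 and 1.20 RPKM with tumours, against 4.23, 2.81 and 2.78 RPKM before. Its log2 fold change of -1.16 ± 0.23 (adjusted p = 0.016) did not pass under median scaling (adjusted p = 0.058) or without before-tumour library 1 (adjusted p = 0.069).

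The death ligand TRAIL and its receptor diverged. Tnfrsf10b, the TRAIL receptor, had 2.24, 1.78 and 4.19 RPKM with tumours, against 0.701, 0.649 and 0.396 RPKM before (log2 fold change 1.19 ± 0.22, adjusted p = 0.012, and 0.054 without before-tumour library 3). Tnfsf10, TRAIL itself, had 0.549, 0.808 and 0.631 RPKM with tumours, against 1.41, 1.29 and 1.49 RPKM before (log2 fold change -0.53 ± 0.11, adjusted p = 0.018). The fall of Tnfsf10 did not pass under median scaling (adjusted p = 1), without any of the 3 before-tumour libraries or without tumour library 1 or 3 (adjusted p up to 0.073). Tnfsf13, the B cell and plasma cell survival factor APRIL, had 7.28, 5.73 and 9.95 RPKM with tumours, against 0.534, 1.10 and 0.490 RPKM before. It had the lowest adjusted p of the mouse members, with a log2 fold change of 2.33 ± 0.21 (adjusted p = 0.00047).

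A further 15 mouse members stayed under the filter and were not tested. The 12 listed as higher were the chemokines Ccl17, Ccl12 and Ccl8, the chemokine receptors Ccr1, Ccr2, Ccr3 and Ccr9, the ligands Tnfsf4 and Tnfsf9, Il7, its receptor chain Il7r, and Il21r. Their group means lay between 0.0382 and 0.955 RPKM with tumours, against 0.001 to 0.287 RPKM before, and Ccl17, Tnfsf9 and Tnfsf4 had no reads in any liver before tumours. Ccr2, the receptor of Ccl2 on monocytes, was the highest of them, with 0.660, 1.38 and 0.828 RPKM with tumours, against 0.341, 0.309 and 0.212 RPKM before. Il7, a lymphocyte survival factor, had 0.280, 0.290 and 0.159 RPKM with tumours, against 0.121, 0.0472 and 0.102 RPKM before, and Il7r had 0.231, 0.303 and 0.244 RPKM with tumours, against 0.102, 0.0634 and 0.118 RPKM before. The 3 listed as lower were the receptor chains Il27ra, Il2ra and Il13ra2, with means of 0.0121 to 0.446 RPKM with tumours and 0.118 to 0.635 RPKM before.

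Cell type markers moved as well, and their part in these results was not tested. Of 16 macrophage markers, 6 were listed, and their summed level was 83.9 to 116 RPKM with tumours and 93.4 to 115 RPKM before. Of the 5 tested, Lyz2 (66.6 ± 7.01 RPKM with tumours, 37.4 ± 7.84 RPKM before, adjusted p = 0.021) and Cd68 (20.2 ± 1.22 RPKM with tumours, 14.5 ± 0.695 RPKM before, adjusted p = 0.048) rose, and the Kupffer cell markers Clec4f (adjusted p = 0.046) and Timd4 (adjusted p = 0.026) fell, whereas under either scaling 2 rose and none fell. Clec4f had 2.82, 14.2 and 10.9 RPKM with tumours, against 30.2, 31.9 and 39.7 RPKM before, and was lowest in tumour library 1. Of the members that fell, that library also had the lowest Tnfrsf19, Ccl24, Il1rap, Il1r1, Cxcl12, Il15ra and Tnfsf10, whereas Il18 and Ccl27a were lowest in tumour library 3. Of 12 endothelial markers 6 were listed, with a sum of 28.6 to 49.5 RPKM with tumours and 21.6 to 29.6 RPKM before, and 4 rose and 1 fell. The 1 listed stellate cell marker of 11, Acta2, had 15.2, 11 and 19.5 RPKM with tumours, against 5.20, 4.05 and 2.76 RPKM before. Lymphocyte and neutrophil markers were sparse, with 1 of 19 T and NK cell markers listed (0.751 to 1.72 RPKM with tumours, 0.274 to 0.581 RPKM before), 1 of 10 B cell markers (0.0437 to 0.271 RPKM with tumours, 0.376 to 0.503 RPKM before) and 1 of 10 neutrophil markers (3.47 to 4.18 RPKM with tumours, 1.19 to 2.66 RPKM before). Hepatocyte markers were abundant in both groups, with 6 of 11 listed and a sum of 134955 to 147550 RPKM with tumours and 59900 to 73502 RPKM before, but they split by gene. Alb averaged 83080 ± 3711 RPKM with tumours and 24699 ± 3706 RPKM before, and it and Apoa1 rose, while Cyp2e1 (280 ± 282 RPKM with tumours, 3135 ± 65.3 RPKM before) and Apoa2 (9744 ± 2436 RPKM with tumours, 20681 ± 2304 RPKM before) fell, and under median scaling 3 rose and 1 fell.

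Downstream of the receptors, the mouse table held few genes and they did not share a direction. Of 40 genes of NF-kappaB and TNF receptor signalling 9 were listed and tested, of which 2 rose and 3 fell (median log2 fold change -0.30), whereas under median scaling 3 rose and none fell (median 0.10). Nfkb2, a subunit of the non-canonical pathway, averaged 7.08 ± 1.74 RPKM with tumours and 3.76 ± 0.564 RPKM before (log2 fold change 0.75 ± 0.18, adjusted p = 0.031). The inhibitor Nfkbia averaged 17.7 ± 1.71 RPKM with tumours and 33.3 ± 7.98 RPKM before (log2 fold change -0.85 ± 0.19, adjusted p = 0.023, and 0.33 under median scaling). Of 26 JAK-STAT genes 6 were listed, with none higher and 4 lower, and under median scaling with 1 higher and none lower. Of 24 genes of interleukin 1 and Toll-like receptor signalling 3 were tested, with 2 higher and 1 lower on all 3 scales. Of 49 cytokine genes outside the naming rule 9 were tested, with 4 higher, such as Ifngr1, a chain of the interferon gamma receptor (31.9 ± 6.41 RPKM with tumours, 8.52 ± 0.876 RPKM before, log2 fold change 1.77 ± 0.17, adjusted p = 0.00061), and 4 lower, such as the leukaemia inhibitory factor receptor Lifr (12.9 ± 3.46 RPKM with tumours, 31.6 ± 2.52 RPKM before, log2 fold change -1.26 ± 0.19, adjusted p = 0.0037, and 0.054 under median scaling). Under median scaling 4 of these 9 rose and none fell.

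In the Morris hepatoma the monocyte and neutrophil chemokines Ccl2, Ccl7, Ccl12 and Cxcl5 were near absent from control liver and reached 21.5 to 129 RPKM in the tumours, and Il33, Cxcl16, Tnfrsf12a and Tnfrsf26 were also far higher. Cxcl12, Cxcl11, Il6r and Il11ra1 were lower. The hepatoma table listed 52 members, 45 as higher and 7 as lower, and 41 of them were tested. Of those, 33 rose, where 85.5% of all tested genes rose, and 5 fell, where 8.73% of all tested genes fell (94.3% passed in either direction), so the share of members that rose was near the background. The members' median log2 fold change was 2.12, against 1.58 over all 8233 tested genes. With every library scaled to the same median 13 members rose and 8 fell (medians 0.46 for members and -0.08 for all genes, of which 2029 rose and 2389 fell), and after quantile normalization 14 rose and 6 fell. The 13 members that rose on all 3 scales were Ccl2, Ccl7, Ccl12, Ccl17, Cxcl5, Cxcl16, Il23a, Il24, Il27ra, Il33, Tnfsf9, Tnfrsf12a and Tnfrsf26. The number that fell was 3 without hepatoma library 4, 1 without control library 1 and 2 without control library 2.

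**Figure D2:**
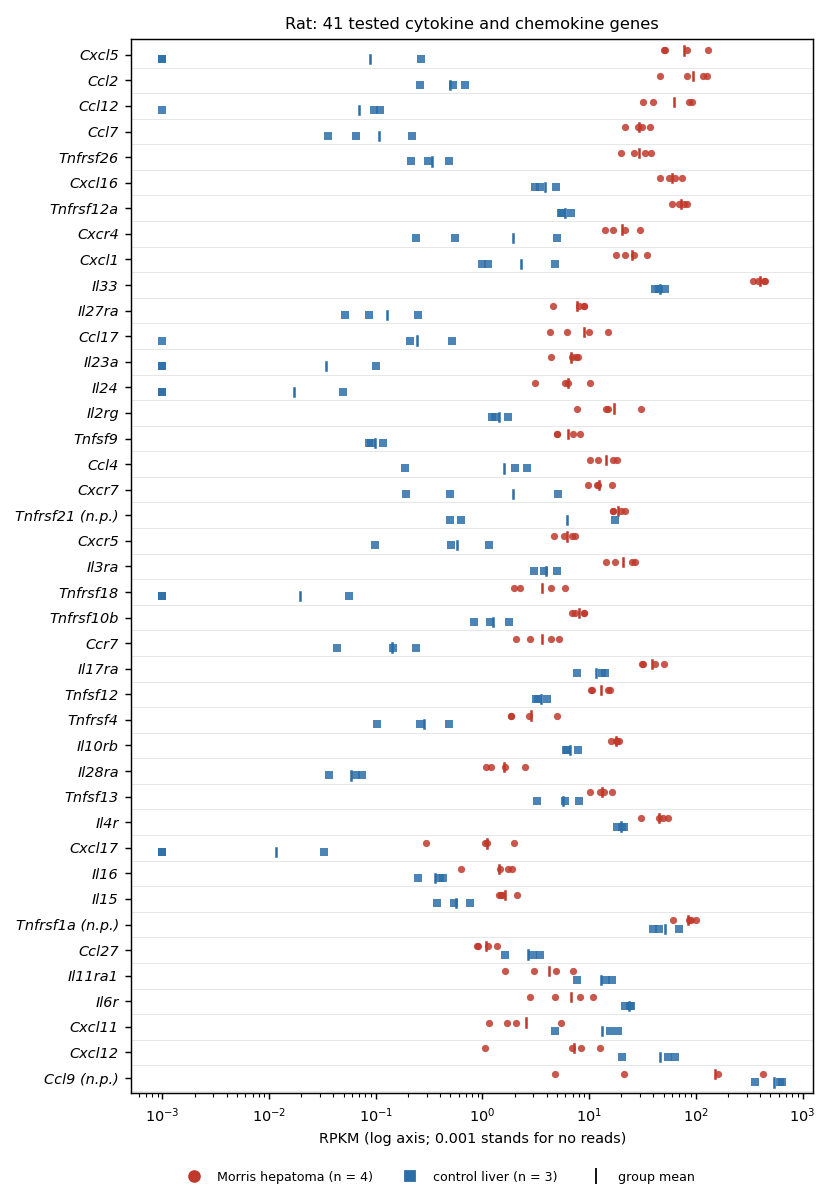
RPKM of the 41 tested rat members on a log axis, with each Morris hepatoma as a circle, each control liver as a square and the group mean as a vertical line; n.p. marks genes that did not pass the test. The chemokines at the top have hepatoma libraries between 21.5 and 129 RPKM and controls below 1 RPKM, while at the bottom Ccl9 ranges from 4.81 to 422 RPKM among the 4 hepatomas.

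Of the 13 chemokines, 9 rose and 3 fell, where 85.5% of all tested genes rose and 8.73% fell. On either of the other scales 6 still rose and 3 fell. Ccl2 had 46.4, 118, 128 and 82.2 RPKM in the hepatomas, against 0.684, 0.260 and 0.534 RPKM in control livers (log2 fold change 5.89 ± 0.33, adjusted p = 1.3e-06). Ccl7, its neighbour on chromosome 10 and also a monocyte attractant, had 21.5, 37.0, 31.4 and 28.7 RPKM in the hepatomas, against 0.220, 0.0359 and 0.0646 RPKM in controls (log2 fold change 4.77 ± 0.20, adjusted p = 3.5e-07). Ccl12, a ligand of Ccr2 in mouse, had 39.3, 93.0, 31.7 and 85.8 RPKM in the hepatomas, against 0.110 RPKM, no reads and 0.0965 RPKM in controls (log2 fold change 5.75 ± 0.38, adjusted p = 5.7e-06). Cxcl5, a neutrophil chemokine, had 50.0, 82.5, 129 and 51.3 RPKM in the hepatomas, and in controls no reads in libraries 1 and 2 and 0.265 RPKM in library 3 (log2 fold change 6.08 ± 0.32, adjusted p = 1e-06). For all 4 genes every hepatoma was above 20 RPKM and every control was under 1 RPKM. Cxcl16, a membrane-bound chemokine of macrophages and endothelium, was present in control liver too, with 46.5, 74.6, 56.0 and 64.1 RPKM in the hepatomas and 3.46, 3.09 and 4.94 RPKM in controls (log2 fold change 3.66 ± 0.21, adjusted p = 1e-06). Ccl17, which attracts Ccr4-bearing T cells, had 6.25, 14.9, 4.34 and 10.0 RPKM in the hepatomas, against 0.210 RPKM, 0.513 RPKM and no reads in controls (log2 fold change 2.89 ± 0.36, adjusted p = 0.00021).

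Promoters of 5 of these chemokines are shown, 4 of genes that rose on the deposited scale (Cxcl1 on that scale only) and that of Cxcl12, which fell, and they were chosen after their values were seen. They are the 250 bases before the start of each gene in RefSeq on the rat build GRCr8, 5′ to 3′ on the strand of the gene, and capitals mark a match to the 10-base NF-kappaB consensus on either strand. RefSeq names the Cxcl5 entry of the table Cxcl6, under the same gene ID. The promoters of Cxcl1 at chr14:17479322-17479571 (minus strand), of Cxcl5 at chr14:17596418-17596667 (minus strand), of Ccl7 at chr10:67513845-67514094 (plus strand), of Ccl12 at chr10:67567626-67567875 (plus strand) and of Cxcl12 at chr4:152060531-152060780 (plus strand) read as follows.
Cxcl1: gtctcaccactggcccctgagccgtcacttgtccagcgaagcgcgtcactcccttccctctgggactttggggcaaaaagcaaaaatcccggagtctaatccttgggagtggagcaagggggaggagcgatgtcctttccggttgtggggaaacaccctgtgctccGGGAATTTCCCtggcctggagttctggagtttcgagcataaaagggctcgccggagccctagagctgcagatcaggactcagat
Cxcl5: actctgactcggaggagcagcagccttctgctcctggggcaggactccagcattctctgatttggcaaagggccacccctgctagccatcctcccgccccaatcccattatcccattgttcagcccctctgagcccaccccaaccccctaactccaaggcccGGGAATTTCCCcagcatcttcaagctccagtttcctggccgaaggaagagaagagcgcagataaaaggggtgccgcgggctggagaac
Ccl7: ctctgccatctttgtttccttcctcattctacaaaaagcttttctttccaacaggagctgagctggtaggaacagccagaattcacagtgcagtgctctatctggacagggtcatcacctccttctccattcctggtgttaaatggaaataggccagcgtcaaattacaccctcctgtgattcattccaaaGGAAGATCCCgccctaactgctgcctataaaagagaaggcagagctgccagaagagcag
Ccl12: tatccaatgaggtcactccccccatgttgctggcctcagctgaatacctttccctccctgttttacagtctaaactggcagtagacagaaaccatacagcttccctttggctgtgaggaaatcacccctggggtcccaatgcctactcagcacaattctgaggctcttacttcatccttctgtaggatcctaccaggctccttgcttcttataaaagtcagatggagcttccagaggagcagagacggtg
Cxcl12: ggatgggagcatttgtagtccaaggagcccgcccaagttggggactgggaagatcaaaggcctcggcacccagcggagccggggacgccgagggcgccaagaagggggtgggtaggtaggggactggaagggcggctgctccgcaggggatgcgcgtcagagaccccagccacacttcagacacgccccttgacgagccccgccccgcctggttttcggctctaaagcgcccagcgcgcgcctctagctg
Cxcl1 and Cxcl5, which lie on chromosome 14, carry the same 11 bases, GGGAATTTCCC, in which 2 overlapping matches lie on opposite strands, 74 and 73 bases before the start in Cxcl1 and 78 and 77 bases in Cxcl5. Ccl7 carries GGAAGATCCC 49 bases before the start, and the windows of Ccl12 and Cxcl12 hold no match. Of the chemokines whose promoters are not shown, Cxcl16 and Ccl17, which rose on all 3 scales, have no match. Ccl9, which did not pass, has 1 match 96 bases before the start. Of those that fell besides Cxcl12, Cxcl11 has 1 match and Ccl27 has none. Cxcl10, listed for regenerating liver only, has 3 matches, and Cxcl17 and Ccl19 have none. A match was found in 6.41% of all 27457 rat promoters of this length (1761), in 10 of the 47 members with a promoter entry (21.3%), in 4 of 24 members that rose (16.7%) and in 1 of 4 that fell (25%). The AP-1 motif TGANTCA, read on both strands, was found in 6.36% of all promoters and in 7 of the 47 members (14.9%). A match is a description of letters and not of binding.

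Cxcl1 itself had 21.5, 17.8, 35.0 and 26.3 RPKM in the hepatomas, against 0.989, 1.12 and 4.82 RPKM in controls (log2 fold change 3.13 ± 0.41, adjusted p = 0.00032), and Ccl4, a chemokine of macrophages and T cells, had 12.2, 18.1, 10.2 and 16.6 RPKM in the hepatomas, against 2.02, 2.59 and 0.187 RPKM in controls (log2 fold change 2.67 ± 0.39, adjusted p = 0.00062). In both genes control library 3 stood apart from the other controls, high in Cxcl1 and low in Ccl4, and neither gene passed under median scaling (adjusted p = 0.076 and 0.1) or quantile normalization (adjusted p = 0.079 and 0.2). Cxcl17, which led the mouse members, stayed low in rat, with 1.09, 1.99, 0.293 and 1.06 RPKM in the hepatomas, and in controls no reads in libraries 1 and 2 and 0.0328 RPKM in library 3. Its log2 fold change was 1.00 ± 0.24 (adjusted p = 0.0084), and 3.22 with a pseudocount of 0.1. Under median scaling it was -0.66, but on log2(RPKM + 1), which understates the change of low genes.

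All 3 chemokines that fell were detected in every control liver. Cxcl12 had 1.06, 8.40, 12.6 and 6.97 RPKM in the hepatomas, against 63.4, 55.4 and 20.1 RPKM in controls. Control library 3 was the lowest control but still above every hepatoma, and the log2 fold change was -2.65 ± 0.76 (adjusted p = 0.041). The call was lost without hepatoma library 4, control library 1 or control library 2 (adjusted p up to 0.16), with a pseudocount of 0.1 (adjusted p = 0.063) and with a filter of 5 RPKM (adjusted p = 0.052), and held under median scaling (adjusted p = 0.009) and quantile normalization (adjusted p = 0.005). Cxcl11, an interferon-induced ligand of Cxcr3, had 1.14, 5.42, 2.05 and 1.72 RPKM in the hepatomas, against 18.8, 15.6 and 4.82 RPKM in controls. Hepatoma library 2 lay above control library 3, so the groups overlapped. Its log2 fold change of -1.93 ± 0.55 (adjusted p = 0.033) was lost without hepatoma library 1, 3 or 4 or control library 1 or 2 (adjusted p up to 0.14) and held on both other scales. Ccl27, the ligand of Ccr10, averaged 1.07 ± 0.223 RPKM in the hepatomas and 2.70 ± 0.962 RPKM in controls (SD, n = 4 and n = 3; log2 fold change -0.81 ± 0.20, adjusted p = 0.0091, and 0.052 without control library 1).

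Ccl9, a chemokine of the macrophage inflammatory protein family described in mouse, was the most abundant member in control and regenerating liver and varied most among the hepatomas. It had 21.1, 4.81, 422 and 162 RPKM in the hepatomas, against 644, 619 and 358 RPKM in controls. Hepatoma library 3 lay above control library 3, and the difference did not pass (log2 fold change -3.26 ± 1.58, adjusted p = 0.25). Albumin, the most abundant hepatocyte marker, ranked the 4 hepatomas in the same order, with 574, 19.0, 10943 and 10924 RPKM, against 67213, 60250 and 48190 RPKM in controls. So did the Kupffer cell markers Clec4f (6.39, 6.02, 26.8 and 25 RPKM) and Cd5l (0.9, 0.412, 12.2 and 8.51 RPKM). Cxcl12 and Il6r did not follow that order. The part of hepatocyte or Kupffer cell RNA in the differences of Ccl9, Cxcl12 and Il6r was not tested.

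**Figure D3:**
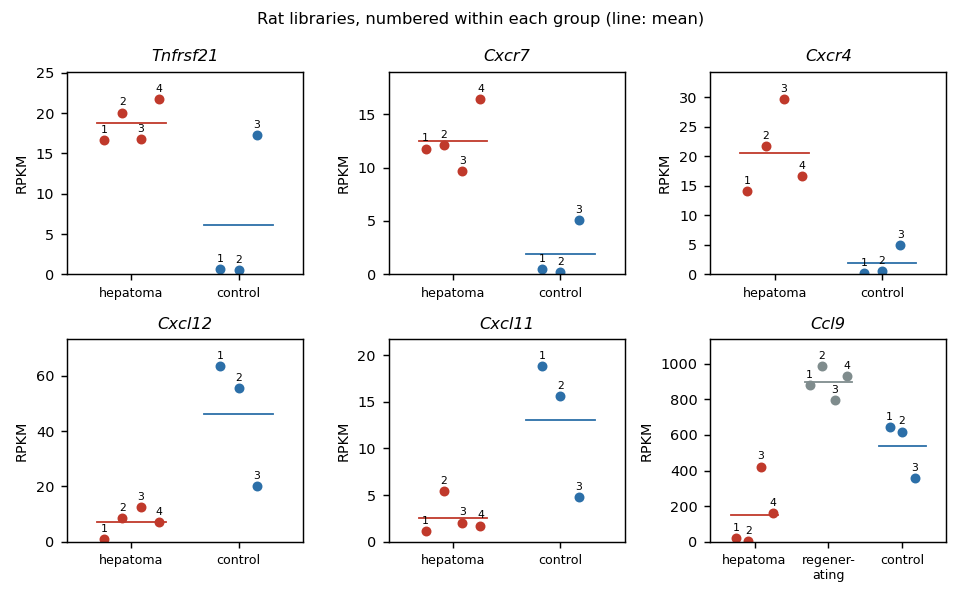
RPKM per numbered rat library for 6 members on linear axes that start at 0, with the group mean as a line. Control library 3 lies at 17.3 RPKM among the hepatomas for Tnfrsf21, above the other controls for Cxcr7 and Cxcr4 and below them for Cxcl12 and Cxcl11, and the Ccl9 panel adds the 4 regenerating livers at 796 to 985 RPKM.

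All 4 tested chemokine receptors rose, where 85.5% of all tested genes rose, and none of the 4 passed under median scaling or quantile normalization. Cxcr4, a receptor of Cxcl12, had 14.1, 21.7, 29.7 and 16.6 RPKM in the hepatomas, against 0.240, 0.553 and 5.00 RPKM in controls (log2 fold change 3.20 ± 0.58, adjusted p = 0.0045, and 3.90 without control library 3, adjusted p = 6.4e-06). Cxcr7, which binds Cxcl12 and Cxcl11 and clears them, had 11.8, 12.1, 9.70 and 16.4 RPKM in the hepatomas, against 0.500, 0.192 and 5.11 RPKM in controls (log2 fold change 2.58 ± 0.57, adjusted p = 0.012). Without control library 1 its adjusted p was 0.052, and without control library 3 it was 4.4e-06. In both receptors control library 3 was the highest control, and no control reached a hepatoma. Cxcr5, the follicle-homing receptor of B cells, averaged 6.19 ± 1.23 RPKM in the hepatomas and 0.583 ± 0.524 RPKM in controls (log2 fold change 2.22 ± 0.24, adjusted p = 3.5e-05), while the 2 of 10 B cell markers listed summed to 0.361 to 2.09 RPKM in the hepatomas and 1.97 to 2.55 RPKM in controls. Ccr7, which guides T cells and dendritic cells to lymph nodes, averaged 3.60 ± 1.43 RPKM in the hepatomas and 0.142 ± 0.0977 RPKM in controls (log2 fold change 1.96 ± 0.24, adjusted p = 8e-05). Ccr10, the receptor of Ccl27, stayed under the filter with 0.450, 0.486, 0.335 and 0.301 RPKM in the hepatomas, against 0.0340 RPKM, 0.0665 RPKM and no reads in controls.

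All 5 interleukins in the hepatoma table rose, where 85.5% of all tested genes rose. Of the 5, Il33, Il23a and Il24 did so on all 3 scales. Il33, an alarmin stored in the nuclei of endothelial and stromal cells, was the most abundant member in the tumour, with 345, 437, 446 and 386 RPKM in the hepatomas, against 41.7, 44.8 and 51.2 RPKM in controls (log2 fold change 3.11 ± 0.19, adjusted p = 1.4e-06). Every hepatoma was far above every control. Il23a, the subunit particular to interleukin 23, had 6.91, 7.93, 7.56 and 4.41 RPKM in the hepatomas, and in controls no reads in libraries 1 and 2 and 0.0997 RPKM in library 3 (log2 fold change 2.87 ± 0.19, adjusted p = 2.1e-06). Il24, a cytokine of the interleukin 10 family, had 6.30, 3.09, 10.1 and 5.97 RPKM in the hepatomas, and in controls no reads in libraries 1 and 3 and 0.0492 RPKM in library 2 (log2 fold change 2.77 ± 0.29, adjusted p = 3.6e-05). Both cytokines were thus near absent from control liver and present in all 4 hepatomas. Il15, a survival factor of NK cells, averaged 1.63 ± 0.307 RPKM in the hepatomas and 0.563 ± 0.199 RPKM in controls (log2 fold change 0.75 ± 0.15, adjusted p = 0.0027). Il16, a ligand of CD4, averaged 1.43 ± 0.566 RPKM in the hepatomas and 0.359 ± 0.0957 RPKM in controls (log2 fold change 0.81 ± 0.20, adjusted p = 0.01). On log2(RPKM + 1), which understates the change of such low genes, both changed less than the median of all genes. Under median scaling on it, their log2 fold changes were -0.91 (Il15, adjusted p = 0.002) and -0.86 (Il16, adjusted p = 0.022). With a pseudocount of 0.1 and no scaling they were 1.41 for Il15 and 1.66 for Il16.

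Of 9 tested interleukin receptor chains 7 rose and 2 fell, where 85.5% of all tested genes rose and 8.73% fell. On either of the other scales 1 rose and 2 fell. The chain that rose on all scales was Il27ra, the receptor of interleukin 27 on lymphocytes, with 9.04, 8.94, 4.62 and 7.95 RPKM in the hepatomas, against 0.0511, 0.0873 and 0.247 RPKM in controls (log2 fold change 2.90 ± 0.22, adjusted p = 3.8e-06). Il2rg had 7.68, 30.9, 14.5 and 15.0 RPKM in the hepatomas, against 1.23, 1.31 and 1.73 RPKM in controls (log2 fold change 2.75 ± 0.39, adjusted p = 0.00048). It was highest in hepatoma library 2, which also had the highest T cell marker Cd3g, with 1.81, 6.26, 1.83 and 3.15 RPKM in hepatoma libraries 1 to 4. The same library was highest for the macrophage marker Lyz2 (1232 RPKM), the endothelial marker Cdh5 (42.9 RPKM) and the fibroblast marker Col1a1 (351 RPKM). Itgam and Acta2 were highest in hepatoma library 3 and Cd68 in hepatoma library 4. The cell source of Il2rg was not tested. Il3ra, Il17ra, Il10rb, Il28ra and Il4r had log2 fold changes of 2.12, 1.66, 1.30, 1.26 and 1.11, with adjusted p between 5.2e-05 and 0.0022, and under median scaling 0.46, -0.00, -0.36, -0.40 and -0.56.

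Il6r, the interleukin 6 receptor through which hepatocytes mount the acute phase response, had 2.81, 4.74, 11 and 8.25 RPKM in the hepatomas, against 21.8, 24.6 and 24.2 RPKM in controls. All hepatomas lay below all controls (log2 fold change -1.81 ± 0.36, adjusted p = 0.0035). Il11ra1, the receptor of interleukin 11, had 1.62, 3.05, 7.06 and 4.94 RPKM in the hepatomas, against 16.5, 14.5 and 7.74 RPKM in controls (log2 fold change -1.49 ± 0.41, adjusted p = 0.024). That call was lost without hepatoma library 2 or control library 1 or 2 (adjusted p up to 0.1). In the rat annotation Il11ra1 overlaps Ccl27, which also fell, and the sources used here do not say whether reads were counted by strand, so the 2 genes may share reads.

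Of the TNF genes tested, 3 of 3 ligands and 5 of 7 receptors rose and none fell, where 85.5% of all tested genes rose and 8.73% fell. Under median scaling 1 ligand and 2 receptors rose and 1 receptor fell, and after quantile normalization 1 ligand and 3 receptors rose. Tnfrsf26, a receptor of the decoy cluster in mouse, had 37.8, 33.1, 19.8 and 26.5 RPKM in the hepatomas, against 0.310, 0.214 and 0.488 RPKM in controls (log2 fold change 4.47 ± 0.22, adjusted p = 5.6e-07). Tnfrsf12a had 60.1, 81.9, 69.1 and 77.6 RPKM in the hepatomas, against 5.46, 6.79 and 5.51 RPKM in controls (log2 fold change 3.40 ± 0.18, adjusted p = 6.7e-07). Its ligand Tnfsf12, TWEAK, had 10.7, 15.8, 10.4 and 15.0 RPKM in the hepatomas, against 4.02, 3.32 and 3.21 RPKM in controls. Both genes of the pair had hepatomas above all controls, and the log2 fold change of Tnfsf12 was 1.61 ± 0.19 (adjusted p = 7e-05), near the median of all genes, with -0.05 under median scaling. Tnfsf9, the ligand of the T cell receptor 4-1BB, had 5.02, 8.27, 5.00 and 7.00 RPKM in the hepatomas, against 0.0893, 0.0872 and 0.118 RPKM in controls (log2 fold change 2.71 ± 0.19, adjusted p = 2.3e-06). Tnfsf13 averaged 13.3 ± 2.51 RPKM in the hepatomas and 5.74 ± 2.37 RPKM in controls (log2 fold change 1.13 ± 0.26, adjusted p = 0.006), with -0.53 under median scaling.

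The T cell receptors Tnfrsf18 (GITR) and Tnfrsf4 (OX40), neighbours on chromosome 5, were low in the hepatomas and lower in controls. Tnfrsf18 had 1.99, 4.43, 5.92 and 2.24 RPKM in the hepatomas, and in controls no reads in libraries 1 and 3 and 0.0563 RPKM in library 2 (log2 fold change 2.10 ± 0.29, adjusted p = 0.00024, and 0.65 under median scaling). Tnfrsf4 had 1.87, 4.97, 1.86 and 2.72 RPKM in the hepatomas, against 0.262, 0.484 and 0.102 RPKM in controls (log2 fold change 1.53 ± 0.26, adjusted p = 0.00083, and 1 under median scaling). The TRAIL receptor Tnfrsf10b averaged 8.00 ± 1.06 RPKM in the hepatomas and 1.25 ± 0.465 RPKM in controls (log2 fold change 2.01 ± 0.18, adjusted p = 1.2e-05, and 0.4 under median scaling). For 2 receptors that did not pass, the call turned on single libraries. Tnfrsf21 had 16.7, 20.1, 16.8 and 21.8 RPKM in the hepatomas, against 0.627, 0.492 and 17.3 RPKM in controls, where control library 3 lay among the hepatomas (log2 fold change 2.48 ± 0.95, adjusted p = 0.12, and 3.66 with 1.2e-06 without that library). Tnfrsf1a, the main TNF receptor of liver cells, had 61.1, 90.7, 86.0 and 101 RPKM in the hepatomas, against 45.0, 40.1 and 69.7 RPKM in controls (log2 fold change 0.72 ± 0.25, adjusted p = 0.053, and 0.96 with 0.0078 without control library 3). It also passed without hepatoma library 1 (log2 fold change 0.87), and under median scaling its log2 fold change was -0.94 (adjusted p = 0.038). Without control library 3, 7 of 7 TNF receptors passed as higher, where 6899 of all 8334 tested genes did.

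**Figure D4:**
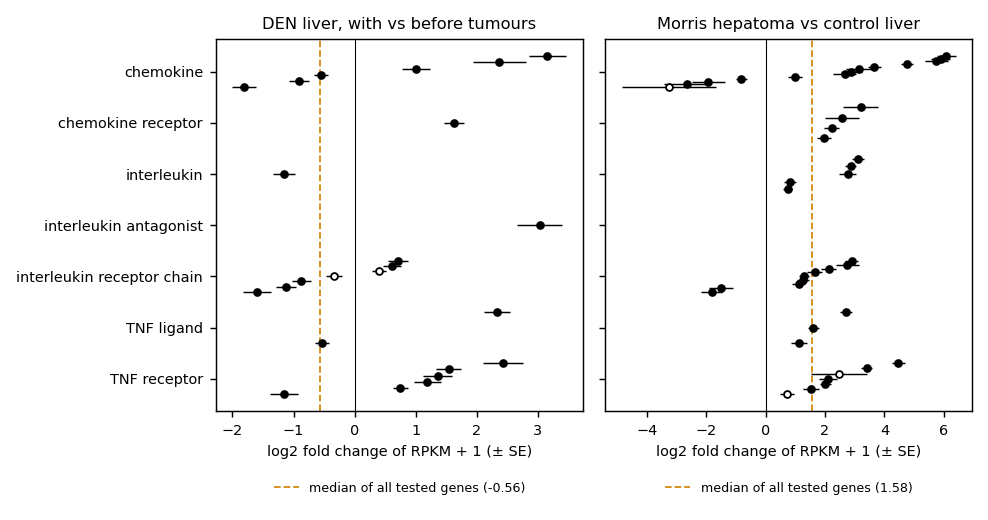
Log2 fold change of RPKM + 1 with its standard error for each tested member, arranged by role, for DEN livers with against before tumours (left) and Morris hepatoma against control (right). Filled points passed the test, open points did not, and the dashed line is the median of all tested genes (-0.56 and 1.58).

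Under the filter, 10 rat members were listed as higher in the hepatoma (Il18r1, Il22ra1, Il9r, Ccr10, Il2ra, Il1rl2, Ccr3, Tnfrsf8, Tnfsf15 and Tnfrsf25), with means of 0.0943 to 0.853 RPKM in the hepatomas and 0.00772 to 0.214 RPKM in controls. The pair of Tnfsf15 and its death receptor Tnfrsf25 was among them. Tnfsf15 had 0.885, 0.720, 0.768 and 0.807 RPKM in the hepatomas, against 0.430 RPKM, 0.153 RPKM and no reads in controls, and Tnfrsf25 had 0.620, 0.840, 0.645 and 1.31 RPKM in the hepatomas, against 0.255, 0.178 and 0.208 RPKM in controls. Il31ra, an interleukin 31 receptor chain, was listed as lower, with 0.0229 RPKM, no reads, 0.0477 RPKM and 0.0239 RPKM in the hepatomas, against 0.194, 0.391 and 0.149 RPKM in controls.

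On the deposited scale most host cell markers were higher in the hepatomas, and their part in the members' differences was not tested. Macrophage markers, of which 7 of 16 were listed, summed to 780 to 1387 RPKM in the hepatomas and 166 to 207 RPKM in controls, and 5 of 7 tested rose and 1 fell. The Kupffer cell marker Clec4f fell (16 ± 11.4 RPKM in the hepatomas, 80.4 ± 10.9 RPKM in controls, adjusted p = 0.012), and Cd5l did not pass (5.51 ± 5.81 RPKM in the hepatomas, 34 ± 4.9 RPKM in controls, adjusted p = 0.053). Stellate cell and fibroblast markers (8 of 11 listed) summed to 510 to 1259 RPKM in the hepatomas and 22.3 to 88.7 RPKM in controls, and endothelial markers (4 of 12) to 57.0 to 88.7 RPKM in the hepatomas and 9.27 to 16.7 RPKM in controls. T and NK cell markers (5 of 19) summed to 9.40 to 22.8 RPKM in the hepatomas and 3.03 to 4.96 RPKM in controls, and no neutrophil marker of 10 was listed. Under median scaling 2 of 7 tested macrophage markers rose and 2 fell, 5 of 8 stellate cell markers and 1 of 4 endothelial markers rose, and of 4 T and NK cell markers none rose and 1, Gzma, fell. Hepatocyte markers (10 of 11) summed to 37.7 to 21195 RPKM in the hepatomas and 81028 to 114038 RPKM in controls, of which 2 of 9 tested fell, and 3 under median scaling.

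The pathways behind the receptors rose with most other genes. All 24 tested genes of the 40 in NF-kappaB and TNF receptor signalling rose, with a median log2 fold change of 1.71 beside 1.58 for all genes, whereas under median scaling 6 rose and 4 fell (median 0.05). Nfkb2 averaged 34.5 ± 5.13 RPKM in the hepatomas and 3.33 ± 0.317 RPKM in controls (log2 fold change 3.02 ± 0.17, adjusted p = 9.4e-07), Nfkbia averaged 213 ± 25.9 RPKM in the hepatomas and 38.1 ± 19.8 RPKM in controls (2.61 ± 0.37, adjusted p = 0.00026, and 0.12 under median scaling), and the adaptor Traf2 averaged 35.7 ± 7.89 RPKM in the hepatomas and 5.41 ± 1.39 RPKM in controls (2.52 ± 0.23, adjusted p = 1.1e-05). Of 19 tested JAK-STAT genes 18 rose and 1 fell (median 1.59), with 3 higher and 3 lower under median scaling. Of 11 tested genes of interleukin 1 and Toll-like receptor signalling all 11 rose (median 1.21), with 1 higher and 4 lower under median scaling. Of 18 tested cytokine genes outside the naming rule 17 rose and none fell (median 2.45), and 7 rose and 2 fell under median scaling. They include Spp1, osteopontin, with 221 ± 34.1 RPKM in the hepatomas and 0.940 ± 0.379 RPKM in controls (6.84 ± 0.20, adjusted p = 1.3e-07). Csf1, the growth factor of macrophages, averaged 24.4 ± 2.13 RPKM in the hepatomas and 1.77 ± 0.851 RPKM in controls (3.24 ± 0.21, adjusted p = 1.6e-06).

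In liver taken 24 hours after hepatectomy, Ccl9, Tnfrsf1a, Cxcl10 and other members had higher means than in control liver, but no difference passed the test. The table listed 13 members, 11 as higher and 2 as lower, and of the 9 tested none passed in limma, where 21.2% of all tested genes rose and 0.763% fell (22% in either direction). At an unadjusted p under 0.05, 8 were higher and 1 was lower, as 1633 of all 1703 tested genes of this preselected table also differed at that level, and the adjusted p-values lay between 0.078 and 0.49. The members' median log2 fold change was 0.60, against 0.53 over all 1703 tested genes. Without control library 3, 1 member passed, and under median scaling or quantile normalization 1 member passed as lower.

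Ccl9 was again the most abundant, with 882, 985, 796 and 931 RPKM in regenerating livers, against 644, 619 and 358 RPKM in controls. All 4 regenerating livers lay above all 3 controls, with a log2 fold change of 0.78 ± 0.20 (adjusted p = 0.11). Cxcl10, an interferon-induced ligand of Cxcr3 that lies beside Cxcl11 on chromosome 14, had 6.22, 4.69, 4.40 and 5.71 RPKM in regenerating livers, against 3.03, 3.37 and 0.414 RPKM in controls, with control library 3 far below the others (log2 fold change 1.09 ± 0.36, adjusted p = 0.27). Ccl19, which guides Ccr7-bearing cells, had 2.03, 1.55, 1.94 and 2.77 RPKM in regenerating livers, against 1.16, 0.526 and 1.02 RPKM in controls (0.69 ± 0.17, adjusted p = 0.078).

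Tnfrsf1a, whose loss is known to impair liver regrowth in mouse, had 79.3, 73.2, 83.3 and 71.4 RPKM in regenerating livers, against 45.0, 40.1 and 69.7 RPKM in controls (log2 fold change 0.60 ± 0.18, adjusted p = 0.17). The groups did not overlap, but control library 3 came close to the lowest regenerating liver, and without it the log2 fold change was 0.84 (adjusted p = 0.0092). Tnfsf10 had 1.66, 4.15, 2.25 and 3.04 RPKM in regenerating livers, against 0.812, 1.26 and 1.19 RPKM in controls (0.82 ± 0.21, adjusted p = 0.1). Il17rc averaged 8.91 ± 1.18 RPKM in regenerating livers and 5.96 ± 0.738 RPKM in controls (0.51 ± 0.13, adjusted p = 0.11), Tnfsf12 averaged 5.20 ± 0.771 RPKM in regenerating livers and 3.52 ± 0.442 RPKM in controls (0.45 ± 0.13, adjusted p = 0.16), and Il4r averaged 25.5 ± 3.43 RPKM in regenerating livers and 19.9 ± 1.37 RPKM in controls (0.33 ± 0.14, adjusted p = 0.49). Their signs turned under median scaling, to -0.12, -0.17 and -0.29.

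The 4 members under the filter were Il17b, Il31ra, Tnfrsf26 and Tnfrsf19. Il17b, of the interleukin 17 family, had 1.35, 0.950, 0.604 and 0.947 RPKM in regenerating livers, and in controls no reads in libraries 1 and 2 and 0.0757 RPKM in library 3. Tnfrsf19 had 0.0181 RPKM, no reads, no reads and 0.0196 RPKM in regenerating livers, against 0.0642, 0.0627 and 0.0752 RPKM in controls. No marker of macrophages, hepatocytes, B cells or neutrophils was listed in this table. Endothelial markers (2 of 12 listed) summed to 8.46 to 15.2 RPKM in regenerating livers and 3.14 to 4.78 RPKM in controls, stellate cell markers (3 of 11) to 55.1 to 73.6 RPKM in regenerating livers and 17.4 to 46.3 RPKM in controls, and the 1 listed T and NK cell marker of 19 had 0.138 to 0.262 RPKM in regenerating livers and 0.455 to 0.884 RPKM in controls, and their part in the members' differences was not tested. Of 9 tested genes of NF-kappaB and TNF receptor signalling 3 rose (Bcl3, Ripk3 and Tnfaip2), of 3 tested cytokine genes outside the naming rule 1 rose, of 3 tested genes of interleukin 1 and Toll-like receptor signalling none passed, and no gene of these lists passed under median scaling or quantile normalization. The 1 cytokine gene was Csf1, at 7.47 ± 1.02 RPKM in regenerating livers, against 1.77 ± 0.851 RPKM in controls (log2 fold change 1.65 ± 0.19, adjusted p = 0.0075). Bcl3, an atypical inhibitor of NF-kappaB, averaged 30.2 ± 5.32 RPKM in regenerating livers and 11.2 ± 3.22 RPKM in controls (1.37 ± 0.19, adjusted p = 0.013). None of 4 JAK-STAT genes passed, and Socs3, which is induced by interleukin 6, had 22.8, 18.7, 13.0 and 9.16 RPKM in regenerating livers, against 0.790, 0.637 and 9.42 RPKM in controls, with control library 3 inside the regenerating range (2.36 ± 0.62, adjusted p = 0.13).

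Hepatoma and regenerating liver could be compared directly for the 6 members listed in both rat tables, of which 5 were tested. These genes had been selected for a difference from the shared controls in each table. In the hepatoma 3 of the 5 were higher, where 80.8% of all 1673 tested genes were higher, and none was lower, where 4% were (84.8% passed in either direction). At an unadjusted p under 0.05, 3 were higher and 1 was lower, where 1546 of all 1673 tested genes differed at that level. Tnfrsf26 separated the tissues most, with 37.8, 33.1, 19.8 and 26.5 RPKM in the hepatomas, against 0.568, 0.669, 0.543 and 0.734 RPKM in regenerating livers (log2 fold change 4.18 ± 0.18, adjusted p = 2.1e-09, and 2.64 under median scaling). Tnfsf12 averaged 13.0 ± 2.82 RPKM in the hepatomas and 5.20 ± 0.771 RPKM in regenerating livers (SD, n = 4 each; 1.16 ± 0.17, adjusted p = 0.00021), and Il4r averaged 45.0 ± 10.5 RPKM in the hepatomas and 25.5 ± 3.43 RPKM in regenerating livers (0.77 ± 0.19, adjusted p = 0.018). The signs of both turned under median scaling, to -0.38 and -0.77, and Il4r did not pass without hepatoma library 2, 3 or 4 or regenerating library 2 (adjusted p up to 0.089).

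Tnfrsf1a averaged 84.6 ± 16.8 RPKM in the hepatomas and 76.8 ± 5.50 RPKM in regenerating livers (log2 fold change 0.12 ± 0.17, adjusted p = 1, and -1.42 with 0.00042 under median scaling). Ccl9 had 21.1, 4.81, 422 and 162 RPKM in the hepatomas, against 882, 985, 796 and 931 RPKM in regenerating livers. Every hepatoma lay below every regenerating liver, yet the spread among the hepatomas was so wide that the difference did not pass (-4.04 ± 1.37, adjusted p = 0.38). Il31ra, under the filter, had at most 0.0477 RPKM in the hepatomas and 0.328, 0.512, 0.476 and 0.522 RPKM in regenerating livers. Of the pathway genes listed in both tables, 5 of 6 in NF-kappaB and TNF receptor signalling, 4 of 4 in JAK-STAT signalling, 3 of 3 in interleukin 1 and Toll-like receptor signalling and 3 of 4 cytokine genes outside the naming rule were higher in the hepatoma, whereas under median scaling 2, 0, 0 and 0 were higher and 1, 1, 3 and 2 were lower.

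Between the mouse and the rat tumour, genes were matched by the same symbol, which is not proof of orthology. The tables shared 18 members, 46.2% of the mouse members and 34.6% of the hepatoma members, and the authors' deposited table gave 16 of these the same direction in both models, where it did so for 1202 of all 2442 shared genes. Of 12 members tested in both, 11 passed in both, 10 as higher and Cxcl12 as lower, and none passed in opposite directions. Over all genes 1156 of 2103 passed in both, with 369 higher in both, 290 lower in both, 476 lower in DEN livers with tumours but higher in hepatoma, and 21 the other way. The 10 that were higher in both were Ccl2, Cxcl1, Cxcl17, Cxcr4, Il2rg, Il10rb, Tnfsf13, Tnfrsf10b, Tnfrsf12a and Tnfrsf18. Some of these calls rested on single libraries. Leaving out 1 library could undo the DEN calls of Ccl2, Cxcl1, Il2rg, Il10rb and Tnfrsf10b and the hepatoma call of Cxcl12. Under median scaling 3 of the 12 passed in both, Ccl2 and Tnfrsf12a as higher and Cxcl12 as lower, where 570 of all 2103 genes did (260 higher in both, 201 lower in both, 21 lower in DEN livers with tumours but higher in hepatoma, and 88 the other way). Quantile normalization added Tnfrsf18 to these 3. Cxcl12 fell in both on all 3 scales while its receptor Cxcr4 was higher in both on the deposited scale, with log2 fold changes of -1.81 and 1.63 in DEN livers with tumours and -2.65 and 3.20 in hepatoma. Tnfrsf12a averaged 72.1 ± 27.4 RPKM in DEN livers with tumours and 72.2 ± 9.65 RPKM in hepatoma. These levels cannot be compared, because the tables differ in species and were normalized separately.

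**Figure D5:**
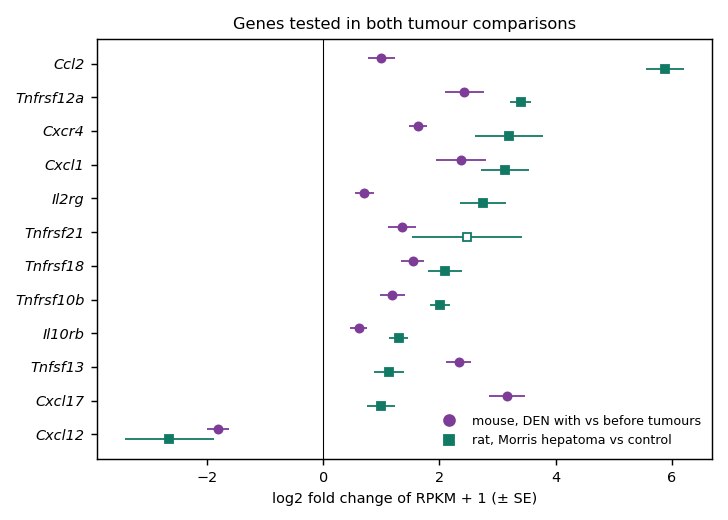
Log2 fold change of RPKM + 1 with its standard error for the 12 members tested in both tumour models, with DEN livers with against before tumours as circles and Morris hepatoma against control as squares; the open square (Tnfrsf21, adjusted p = 0.12) did not pass. All members but Cxcl12 lie right of 0 in both models on the deposited scale, where Cxcl17 under median scaling lies at -0.66 and Il10rb and Tnfsf13 lie at -0.36 and -0.53 in rat.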

How the data were processed

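RNA from flash-frozen liver was sequenced with standard Illumina libraries, per the labels' protocols. No aligner, genome build or annotation is given in the sources used here. The authors deposited RPKM values per library (the headers name no unit, and the values were read as RPKM because low values move in steps with 1 depth per library, relative to the first library of each table). Absolute depth is unknown, so no counting intervals are given. Per the file headers, the tables also hold a log2 ratio of the group means, which equalled the recomputed ratio within 0.01 in every gene, and a p-value whose header names a Holm correction. None of these was above 0.05. The header is the only sign of a correction, and the values look unadjusted. In regenerating against control liver, 1633 of 1703 tested genes had an unadjusted limma p under 0.05, but only 374 passed after adjustment. A listed gene is therefore not taken here to have passed a correction. The hepatoma table has 1 line that names no gene, which was dropped. The values of 1 member of the regeneration table are not reported here, though it is in the counts.

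Differences of log2(RPKM + 1) were tested two-sided with limma 3.58.1 under R 4.3.3, with robust moderation and an intensity trend, over all listed genes that reached 1 RPKM in at least the number of libraries in the smaller group. Because the tables hold preselected genes, Benjamini-Hochberg adjustment counted all annotated protein-coding genes, 21951 mouse genes of GENCODE M21 and 23154 rat genes of RefSeq on GRCr8. The procedure was tested on simulated data. All 39 mouse members matched a GENCODE symbol and all 59 rat members a RefSeq gene ID. The members, the gene lists, the cell type markers and the tests were chosen with earlier results of these data known. The genes named were, per comparison, the 12 largest changes in each direction past the threshold, every member listed in more than 1 table, listed ligand-receptor pairs, and the 5 highest means of each group. The remaining members named complete their class or a scaling comparison and were chosen after their values were seen. The lists were NF-kappaB and TNF receptor signalling, JAK-STAT signalling, interleukin 1 and Toll-like receptor signalling, cytokine genes outside the naming rule, and markers of 7 cell types. Alternatives were another pseudocount (0.1), another filter (5 RPKM or none), adjustment over tested genes, median and quantile scaling, a replicate block, a single fit of all rat groups and leaving out each library. Python 3.11.15 with numpy 2.4.6, pandas 2.3.3 and matplotlib 3.10.9 did the remaining work.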

Additional observations from a re-analysis of the deposited data

Results flagged for a closer look

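Among the groups of 4 rat libraries, Il15 in hepatoma library 4 (2.09 RPKM) lay far from the other 3 hepatomas (1.43, 1.51 and 1.49 RPKM) by Dixon's test. The test was applied to the highest and lowest library of every member without adjustment for their number, so this flag carries little weight.

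In the authors' deposited table, 4 members had opposite directions in different models, with every library of one group past every library of the other in each. Such separation was the rule among all listed genes. These differences between models were not tested, and the models differ in species or were normalized separately. The log2 ratio of Il27ra was -0.51 in DEN livers with against before tumours and 5.89 in Morris hepatoma against control. In mouse Il27ra was under the filter, with means of 0.446 RPKM with tumours and 0.635 RPKM before. For Il2ra, the high-affinity interleukin 2 receptor chain, the log2 ratios were -1.04 in the DEN model and 3.44 in the hepatoma, and the mouse levels were under 0.2 RPKM. Il17rc had -0.36 in the DEN model and 0.58 in regenerating rat liver. It passed the limma test in neither (adjusted p = 0.21 and 0.11), and its sign turned under median scaling in both. Tnfsf10 had -1.07 in the DEN model and 1.35 in regenerating rat liver. In limma it passed in the DEN model (adjusted p = 0.018), though not under median scaling, and did not pass in regenerating liver (adjusted p = 0.1).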

How the results depend on the processing

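Scaling, the filter and the adjustment each moved counts of calls. The median log2 fold change of all tested genes was -0.56 in DEN, 1.58 in hepatoma and 0.53 in regenerating liver as deposited, and within 0.16 of 0 under median scaling. The cause was not tested, and a scale that holds for both tumour and control cannot be chosen from these tables. For DEN, members higher numbered 13, with 5 at a filter of 5 RPKM and 22 with no filter (more genes tested). Members lower numbered 9, with 5 at a filter of 5 RPKM and 4 under median scaling. For hepatoma, members higher numbered 33, with 13 under median scaling, 14 under quantile normalization and 4 in a single fit of all rat groups, which holds only genes in both tables. Members lower numbered 5, with 0 in that fit, 3 at a filter of 5 RPKM and 8 under median scaling. For regenerating liver, 0 passed, with 8 higher and 1 lower when adjusted over the tested genes, 1 higher with no filter, and 1 lower under median or quantile scaling. For hepatoma against regenerating liver, 3 were higher, with 1 under either scaling, and 0 were lower, with 1 adjusted over the tested genes, 1 with no filter, 2 under median scaling and 1 under quantile normalization.

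Leaving out each library in turn gave 9 to 12 members higher and 5 to 9 lower in DEN, 31 to 35 higher and 1 to 5 lower in hepatoma, 0 to 1 higher in regenerating liver, and 2 to 3 higher in hepatoma against regenerating liver.

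Same-numbered libraries did not deviate together (correlations between -0.31 and 0.15 over the 4 comparisons). This gave no sign that the numbers pair them, but so few libraries per group cannot decide it. With a replicate block 11 members rose and 8 fell in DEN, 30 rose and 1 fell in hepatoma, 0 passed in regenerating liver, and 3 were higher in hepatoma against regenerating liver.

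Signs turned for these log2 fold changes, under median scaling and then quantile normalization where both turned. In DEN these were Il17rc (0.06, 0.16). In hepatoma they were Cxcl17 (-0.66), Il28ra (-0.40), Tnfrsf4 (-0.13), Il17ra (-0.00), Il16 (-0.86, -0.53), Tnfsf12 (-0.05, -0.07), Il15 (-0.91, -0.65), Il10rb (-0.36, -0.32), Tnfsf13 (-0.53, -0.52), Il4r (-0.56, -0.22) and Tnfrsf1a (-0.94, -0.30). In regenerating liver they were Tnfrsf1a (-0.02), Il17rc (-0.12, -0.09), Tnfsf12 (-0.17, -0.19) and Il4r (-0.29, -0.23). Between hepatoma and regenerating liver they were Tnfsf12 (-0.38, -0.41), Il4r (-0.77, -0.64) and Tnfrsf1a (-1.42, -1.26). Both scalings acted on log2(RPKM + 1), which understates the change of low genes, so a turned sign of a low gene partly reflects that scale. With a pseudocount of 0.1 and no scaling, the hepatoma log2 fold changes were 3.22 for Cxcl17, 3.35 for Il28ra and 2.96 for Tnfrsf4. Those of Il16 and Il15 were 1.66 and 1.41.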
